A study of Mus musculus with 20 samples.

Results

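Gene expression was compared between 3T3-L1 cells on day 3 and on day 2 after induction of fat cell differentiation. The samples of the comparison were defined by their time labels, but the comparison was chosen with earlier results of these data known. It used 4 of the 20 arrays of the series, namely 1 for day 3 and 1 for day 2 on each of 2 Affymetrix designs. These designs, array A and array B, carry different probe sets. 3T3-L1 is an established clonal line of mouse fibroblasts that stores fat after hormone treatment. The day 3 and day 2 cells both belonged to the line with no genetic change named in the labels, and both had been induced with MDI, a hormone cocktail that by convention holds dexamethasone, insulin and isobutylmethylxanthine. The other 8 time points were preconfluent and confluent cells, 6, 12 and 24 hours, and days 4, 7 and 28. Each time point was 1 sample on each array type, so every difference between day 3 and day 2 below is a difference between single samples with no replicate and no test.

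In this model dexamethasone acts through the glucocorticoid receptor and isobutylmethylxanthine raises cyclic AMP, and together they switch on the factors C/EBP beta and C/EBP delta. The arrested cells then copy their DNA and divide again before C/EBP alpha and PPAR gamma, the master regulators of the fat cell, turn on the genes of lipid storage. The inducing mixture is usually exchanged for medium with insulin around the second day, but the labels used here give no time of removal.

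The promoters of 4 genes are shown because each stands for a gene group described below. Adipoq encodes the adipocyte hormone adiponectin and was higher on day 3. Mcm5, a subunit of the helicase that unwinds DNA for replication, Top2a, the topoisomerase that untangles chromosomes for mitosis, and Dusp1, a phosphatase of MAP kinases that glucocorticoids and cyclic AMP induce, were lower on day 3. Each sequence runs from 250 bases before to 50 after the start of the gene in the RefSeq annotation of GRCm38.p6, and is written 5′ to 3′ on the gene's own strand. Capitals mark matches on either strand to CCAAT (the CCAAT box), TTTGAA (the cell cycle homology region of mitotic genes), TTTGGCGC and TTTCGCGC (both forms of the site of E2F factors) and TGACGTCA (the cyclic AMP response element). The Adipoq promoter lies at chr16:23146286-23146585 on the plus strand, that of Mcm5 at chr8:75109259-75109558 on the plus strand, that of Top2a at chr11:99024140-99024439 on the minus strand and that of Dusp1 at chr17:26508423-26508722 on the minus strand.
Adipoq: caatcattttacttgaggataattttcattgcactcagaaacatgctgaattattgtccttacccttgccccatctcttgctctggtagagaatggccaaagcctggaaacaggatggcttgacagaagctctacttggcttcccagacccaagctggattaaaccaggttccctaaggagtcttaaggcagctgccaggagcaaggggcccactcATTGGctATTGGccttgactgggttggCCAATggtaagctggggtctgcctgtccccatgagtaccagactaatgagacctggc
Mcm5: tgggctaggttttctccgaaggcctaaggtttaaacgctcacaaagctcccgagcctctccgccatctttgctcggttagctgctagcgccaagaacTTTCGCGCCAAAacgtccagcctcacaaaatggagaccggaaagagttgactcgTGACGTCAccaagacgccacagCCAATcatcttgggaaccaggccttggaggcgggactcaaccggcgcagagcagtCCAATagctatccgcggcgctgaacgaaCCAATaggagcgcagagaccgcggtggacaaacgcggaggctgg
Top2a: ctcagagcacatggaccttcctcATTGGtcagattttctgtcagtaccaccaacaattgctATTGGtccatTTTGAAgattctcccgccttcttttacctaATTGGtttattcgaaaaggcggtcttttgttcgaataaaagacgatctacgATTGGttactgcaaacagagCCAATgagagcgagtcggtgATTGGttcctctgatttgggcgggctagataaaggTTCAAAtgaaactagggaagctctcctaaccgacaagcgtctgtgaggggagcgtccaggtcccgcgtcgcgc
Dusp1: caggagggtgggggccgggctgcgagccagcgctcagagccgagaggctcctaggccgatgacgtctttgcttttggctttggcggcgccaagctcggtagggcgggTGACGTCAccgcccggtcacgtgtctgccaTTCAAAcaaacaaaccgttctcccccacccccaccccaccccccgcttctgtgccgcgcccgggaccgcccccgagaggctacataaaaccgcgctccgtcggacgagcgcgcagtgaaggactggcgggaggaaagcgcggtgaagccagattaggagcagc

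The Mcm5 window held both E2F forms on opposite strands in 1 overlapping stretch that starts 153 bases before the start site, together with 1 cyclic AMP response element and 3 CCAAT boxes. The Top2a window held 6 CCAAT boxes and 2 copies of TTTGAA. The Dusp1 window held 1 copy of TGACGTCA, 143 bases before the start site, and 1 of TTTGAA, and the Adipoq window held 3 CCAAT boxes.

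On day 3 the cells had more mRNA for the storage of fat, for adipocyte hormones and for serine synthesis. At least 2-fold lower were 3 of 16 measured genes of DNA replication and 5 of 15 of the hormone response. Among all measured genes 5.19% were called lower. Gpd1, the enzyme that makes the glycerol backbone of triglyceride, was 16.5-fold higher on day 3 than on day 2, and Adipoq was 9.30-fold higher. The versican gene Vcan, a matrix proteoglycan, was 2.64-fold lower and Fkbp5, a glucocorticoid-induced chaperone of the receptor, was 2.50-fold lower. The arrays measured whole cultures, so more cells of a kind and more mRNA per cell cannot be told apart. The plot of day 3 against day 2 intensities shows these genes among all probe sets. Values are linear intensities, scaled by the authors to a common mean. Values below 136 on array A or 156 on array B were set to that floor before taking log2. A probe set was called when the samples were at least 2-fold apart and the brighter value lay above 500. Where the dimmer sample was at the floor, the fold is a lower bound and is written "at least".

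On array A, 121 of the 2090 probe sets bright enough were at least 2-fold higher on day 3 (5.79%) and 110 were at least 2-fold lower (5.26%). On array B, 68 of 1800 were higher (3.78%) and 56 were lower (3.11%). Over both array types that made 189 of 3890 probe sets higher (4.86%) and 166 lower (4.27%), of which 40 higher and 28 lower ones were at least 4-fold apart. Just inside the fold limit, 41 probe sets of array A and 22 of array B had a log2 difference between 1 and 1.1 in size, and just outside it 50 and 28 had one between 0.9 and 1. Among genes named by 1 symbol, 2255 of the 6137 on the arrays were measured, meaning that a probe set exceeded 500 in 1 of the 2 samples. Of these, 135 were called higher (5.99%) and 117 lower (5.19%), after leaving out genes with another bright probe set that pointed the other way by 1.5-fold or more. These shares are the background for the counts of called genes in each list below. The median log2 difference of the 2255 genes was -0.02, and 48.2% of them lay above 0. The step was not a large one for this series: 11.1% of bright probe sets were called on array A, where the 9 steps between consecutive time points ranged between 10.7% and 19.2%, and 6.89% on array B, the lowest of 9 steps that reached 17.1%.

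**Figure D1:**
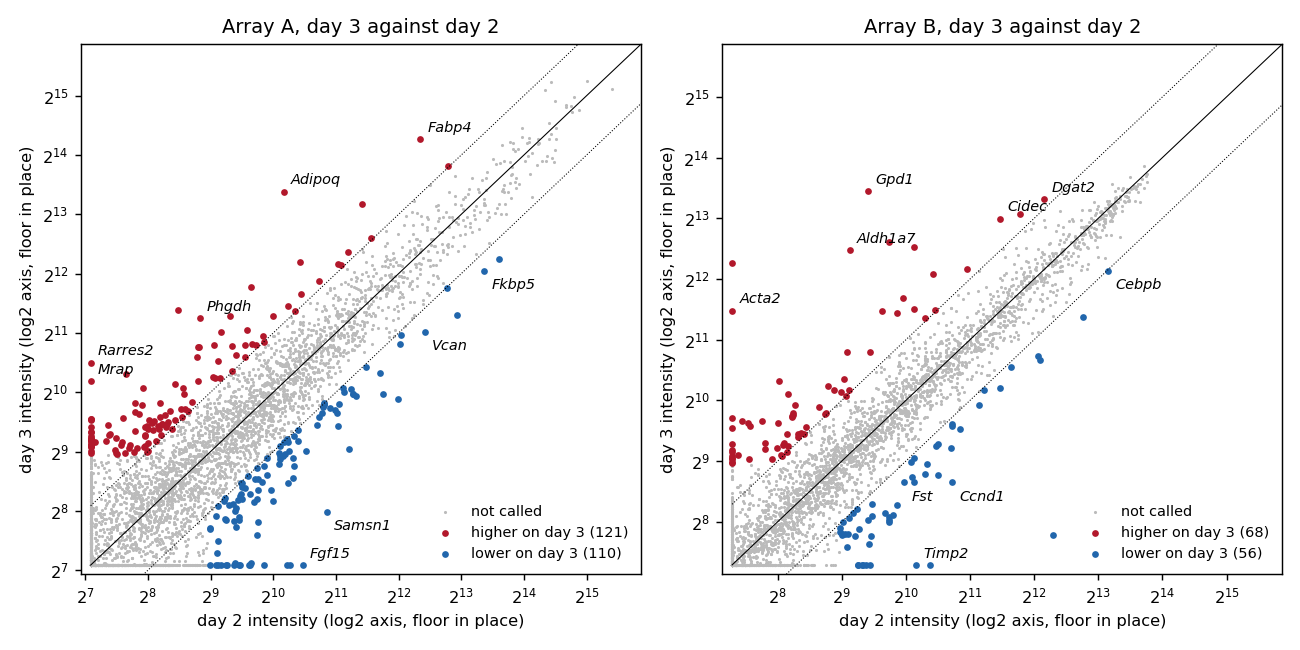
Intensity on day 3 (vertical, log2 axis) against day 2 (horizontal, log2 axis) for each probe set of array A (left) and array B (right), with the floor in place. Red points are at least 2-fold higher on day 3 with the brighter value above 500 (121 on array A, 68 on array B), blue points are at least 2-fold lower (110 and 56), and dotted lines mark 2-fold. Gpd1 and Adipoq stand far above the diagonal, Fgf15 and Timp2 far below it.

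Several technical values stand beside these counts. The signal ratio of 3-prime to 5-prime control probe sets, a sign of how complete the RNA was, came to 1.60 on day 3 and 1.27 on day 2 for Gapdh of array A and to 1.72 on day 3 and 1.41 on day 2 for its actin, the day 3 actin ratio being the highest of the 10 arrays. On array B the ratios were 0.765 on day 3 and 0.762 on day 2 for Gapdh and 1.06 on day 3 and 1.08 on day 2 for actin. Values at or below the floor made up 45.8% of array A on day 3 and 45.9% on day 2, and 54.6% of array B on day 3 and 55.4% on day 2. Calls were more frequent among dim probe sets, with 13.1% of those between 500 and 1000 called in either direction and 4.40% of those above 5000. The part of RNA quality and of brightness in the results was not tested.

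The 19 measured genes of adipocyte lipid storage and secreted products had the highest median of the gene lists. Of these, 10 were called higher, none was called lower, 16 lay above 0, and the median log2 difference was 1.16. Gpd1 read 11200 on day 3 and 677 on day 2. It had read below 0 at all 5 earlier time points and stayed between 9660 and 12500 on days 4, 7 and 28. Adipoq read 10700 on day 3 and 1150 on day 2, after 152 at 24 hours and before 17700 on day 4. Cd36, the fatty acid carrier of the cell surface, has a family probe set on each array type. It read 2690 on day 3 and 356 on day 2 on array A (7.56-fold), and 5930 on day 3 and 1110 on day 2 on array B (5.34-fold), so that both array types gave the same direction and a similar size. Mrap, an accessory protein of melanocortin receptors, read 1170 on day 3 and 18 on day 2, at least 8.60-fold higher. Adig, a small membrane protein of adipocytes, read 617 on day 3 and -149 on day 2, at least 4.54-fold higher. Fabp4, the fatty acid carrier of the adipocyte cytosol, read 19800 on day 3 and 5210 on day 2 on a family probe set (3.80-fold), after 269 at 24 hours.

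Other genes of that list differed in how far they had come by day 2. Slc2a4, the insulin-responsive glucose transporter, read 540 on day 3 and 77 on day 2, at least 3.46-fold higher, and went on to 2080 on day 4 and 3200 on day 7. Cidec, which enlarges lipid droplets, read 8150 on day 3 and 2840 on day 2 (2.87-fold), and Dgat2, which completes triglyceride, read 10200 on day 3 and 4560 on day 2 (2.24-fold). Both had read below the floor at 24 hours. Retn, the adipocyte hormone resistin, read 9220 on day 3 and 2740 on day 2 (3.36-fold). Genes of the list that did not reach 2-fold included Lpl, the lipase that frees fatty acids from lipoproteins, with 35200 on day 3 and 20700 on day 2, and Lipe, the hormone-sensitive lipase, with 14900 on day 3 and 12600 on day 2. Plin2, a coat protein of lipid droplets, read 2190 on day 3 and 1890 on day 2. Adipor2, an adiponectin receptor, read 3630 on day 3 and 6010 on day 2.

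**Figure D2:**
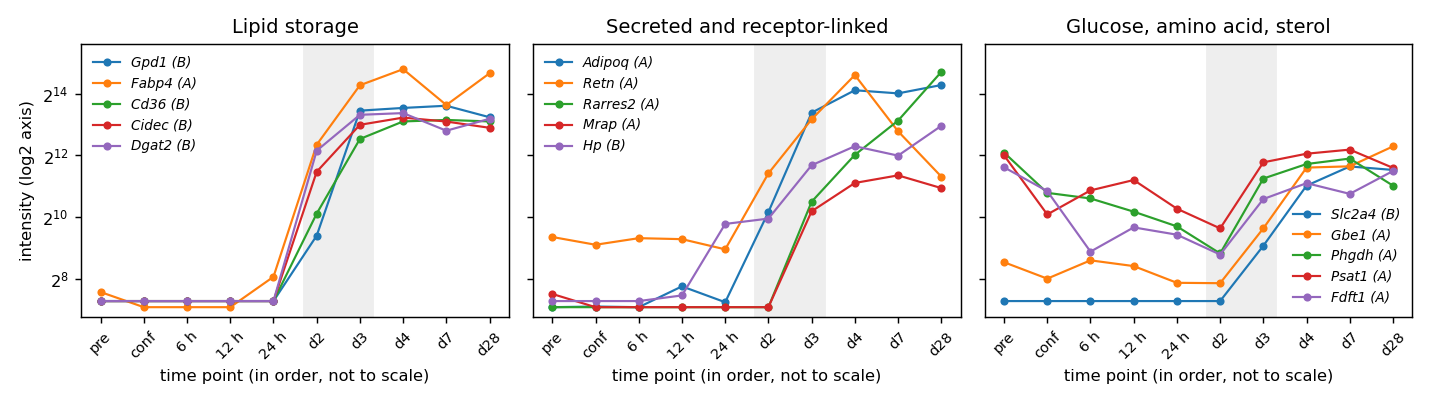
Intensity (log2 axis, floor in place) of 15 genes called higher on day 3, by time point in order and not to scale; pre is preconfluent, conf confluent, and the letter gives the array type. The grey band marks day 2 and day 3, and each line is 1 probe set with 1 array per time point. The lipid storage genes leave the floor by day 2, Rarres2, Mrap and Slc2a4 between day 2 and day 3, and Phgdh, Psat1 and Fdft1 pass a low point on day 2.

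The factors that direct the programme changed less than its products. Pparg read 1410 on day 3 and 894 on day 2 (1.58-fold) and Cebpa 1490 on day 3 and 1050 on day 2 (1.42-fold), so neither reached 2-fold. Both had come up earlier, with 267 and -229 at 24 hours. Cebpb was lower, with 4500 on day 3 and 9090 on day 2 (2.02-fold), after 8450 to 9960 between 6 and 24 hours, and it read 6410 on day 4. After quantile normalisation Cebpb fell short of 2-fold. Egr2, an early growth response factor that promotes adipogenesis, read 282 on day 3 and 575 on day 2 (2.04-fold lower), and 745 on day 4. The 10 measured factors had a median of -0.03, with 2 called lower and none higher. All 7 measured inhibitors of adipogenesis lay below 0 with a median of -0.38. Foxc2, a forkhead factor, was called lower with 271 on day 3 and 855 on day 2 (3.16-fold). Dlk1, the preadipocyte factor that holds differentiation back, read 1970 on day 3 and 3910 on day 2 and missed the limit with a log2 difference of -0.99.

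Enzymes of fat metabolism lay above 0 in most cases, but seldom by 2-fold. Of the 12 measured genes of fatty acid synthesis and the pentose phosphate pathway, 11 lay above 0 with a median of 0.71, but only Me1, the malic enzyme that supplies NADPH, was called, with 687 on day 3 and 285 on day 2. Fasn, the fatty acid synthase, read 7980 on day 3 and 5990 on day 2, and Slc25a1, the mitochondrial citrate carrier, read 11500 on day 3 and 5770 on day 2, a log2 difference of 0.99. Elovl1, which lengthens very long fatty acids, was the exception below 0. Among 19 genes of fatty acid oxidation 18 lay above 0 with a median of 0.47, and 2 were called. These were Decr1, needed for unsaturated fatty acids, with 1230 on day 3 and 525 on day 2, and Acads, which acts on short chains, with 4580 on day 3 and 2100 on day 2. Among all measured genes 5.99% were called higher. The 4 measured genes of cholesterol synthesis all lay above 0, and Fdft1, the squalene synthase, was called with 1540 on day 3 and 443 on day 2 (3.48-fold).

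Respiratory chain genes shifted together by a small amount. Of 35 measured genes 33 lay above 0, with a median of 0.33, against 48.2% of all measured genes above 0. Uqcrq, a subunit of complex III, was the 1 gene called, with 6200 on day 3 and 3010 on day 2. Ndufs3, a subunit of complex I, read 5440 on day 3 and 2730 on day 2, and Uqcrc1, of complex III, read 2480 on day 3 and 1250 on day 2, each with a log2 difference of 0.99. On array A the list's probe sets had a median of 0.39, and on array B one of 0.10. The 16 genes of the citric acid cycle had a median of 0.21 with 12 above 0 and none called, among them citrate synthase Cs with 2220 on day 3 and 1190 on day 2.

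Amino acid and glucose genes held some of the largest single differences. Phgdh, the first enzyme of serine synthesis, read 2440 on day 3 and 454 on day 2 (5.37-fold), and Psat1, the next enzyme of that path, read 3510 on day 3 and 797 on day 2 (4.40-fold). Both had declined before: Phgdh read 4370 in preconfluent cells, 1560 at 6 hours and 834 at 24 hours, so day 2 was the low point of its series. Bcat2, which starts the breakdown of branched-chain amino acids in mitochondria, read 8560 on day 3 and 3500 on day 2 (2.45-fold). Asns, the asparagine synthetase, read 2880 on day 3 and 2470 on day 2. The 13 measured amino acid genes thus had 3 called higher, none lower and a median of 0.31. Of 17 glycolysis and glucose transport genes 3 were called higher. Beside Slc2a4 these were Gbe1, the glycogen branching enzyme, with 798 on day 3 and 233 on day 2 (3.42-fold), and Pfkfb3, which makes the activator of phosphofructokinase, with 2120 on day 3 and 769 on day 2 (2.76-fold).

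The remaining genes among the 15 most raised are given here with other called members of their lists. Aldh1a7, an aldehyde dehydrogenase, read 5710 on day 3 and 556 on day 2 (10.3-fold), and stayed between 4300 and 8740 on days 4, 7 and 28. Rarres2, the adipokine chemerin, read 1450 on day 3 and -713 on day 2, at least 10.7-fold higher, and went on to 26700 on day 28. Of 28 redox and detoxification genes, 3 were called higher and none lower, beside 5.99% and 5.19% of all measured genes. Apart from Aldh1a7 the called ones were Gstm1 and Adh1. Gstm1, a glutathione transferase, read 2070 on day 3 and 576 on day 2. Adh1, an alcohol dehydrogenase, read 520 on day 3 and 178 on day 2. Hp, the acute phase protein haptoglobin, read 3290 on day 3 and 993 on day 2 (3.31-fold). Slc25a33, a mitochondrial pyrimidine nucleotide carrier, read 684 on day 3 and 134 on day 2, at least 5.03-fold higher, and Mrpl45, a mitochondrial ribosomal protein, read 646 on day 3 and 137 on day 2. Camp, an antimicrobial peptide, read 749 on day 3 and 98 on day 2, and Mtss2, a membrane-bending protein, 747 on day 3 and 32 on day 2. Flg, an epidermal filament protein, read 645 on day 3 and -51 on day 2 but 134 on day 4. The array B probe set of Flg, too dim to count, read 198 on day 3 and 214 on day 2.

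Some of the raised genes were in the list of actin cytoskeleton and adhesion and not in the adipocyte lists. Acta2, smooth muscle actin, had the largest difference of all named genes, with 2850 on day 3 and -98 on day 2, at least 18.3-fold. It had read between 8440 and 11600 up to 12 hours, 629 at 24 hours, and -58 again on day 4, so day 3 stood apart from both neighbouring arrays. Tgfb1i1, an adhesion adaptor, read 577 on day 3 and -237 on day 2, with -102 on day 4. Tpm1, a tropomyosin, read 613 on day 3 and 247 on day 2, and Anxa1, a membrane-binding annexin, read 4610 on day 3 and 1970 on day 2. Actn1, which crosslinks actin, was lower with 858 on day 3 and 1780 on day 2. The 36 actin and adhesion genes had 4 called higher, 1 lower and a median of 0.15. Among all measured genes 5.99% were called higher and 5.19% lower.

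Genes of the response to the inducing hormones were lower. Of 15 measured genes of the glucocorticoid and cyclic AMP response, 5 were called lower, none higher, and the median was -0.49. All 5 read higher on day 4 than on day 3, with 5890 for Fkbp5, 864 for Dusp1, 483 for Serpina3n and 6410 for Cebpb on day 4. Only Mt2 then stood above its day 2 value. Fkbp5 read 4240 on day 3 and 10600 on day 2. It had stood between 5700 and 9460 from 6 to 24 hours, against 1410 in confluent cells. Dusp1 read 442 on day 3 and 1250 on day 2 (2.83-fold), down from 4730 at 6 hours. Mt2, a metal-binding metallothionein on a family probe set, read 4860 on day 3 and 12500 on day 2 (2.57-fold) but 18300 on day 4. Serpina3n, a protease inhibitor of the acute phase, read 212 on day 3 and 679 on day 2 (3.20-fold). Others moved the opposite way without reaching 2-fold, among them Hsd11b1, which reactivates glucocorticoid, with 8050 on day 3 and 4550 on day 2, and the clock gene Per1 with 1710 on day 3 and 1000 on day 2.

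Genes of DNA replication had the lowest median of the lists with at least 4 measured genes, -0.58 over 16 genes, with 11 below 0, 3 called lower and none higher. Cdc45, which activates the replicative helicase, read 92 on day 3 and 576 on day 2, at least 4.24-fold lower, while its second probe set stayed below 500 in both samples with 428 on day 3 and 280 on day 2. The helicase subunit Mcm5 read 231 on day 3 and 608 on day 2 (2.63-fold) and Mcm2 read 232 on day 3 and 598 on day 2 (2.58-fold). The day 2 values of all 3 called genes were close to the limit of 500. On day 4 Cdc45, Mcm5 and Mcm2 read 250, 32 and 450. Mcm7 read 851 on day 3 and 1510 on day 2, and Pcna, the sliding clamp of the polymerase, read 1190 on day 3 and 1880 on day 2, both short of 2-fold. Tk1, the thymidine kinase, lay above 0 with 589 on day 3 and 305 on day 2. All 16 genes had a RefSeq promoter, and 4 of them (25%) held an E2F form in the window, as Mcm5 does. The share was 0.929% among the 27025 genes with a promoter and 2.18% among the measured genes with one. CCAAT was in 11 of the 16 (68.8%), against 41.1% of all genes and 43.1% of the measured genes.

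Mitosis genes lay below 0 in 13 of 17 cases with a median of -0.33. Top2a was the 1 gene called, and both array types gave it: 260 on day 3 and 855 on day 2 on array B (3.29-fold), and 134 on day 3 and 441 on day 2 on array A, where it was too dim to count, on family probe sets. Cdk1, the kinase that starts mitosis, read 1680 on day 3 and 2440 on day 2, Mki67, the proliferation marker, 1270 on day 3 and 1370 on day 2, and Ccnb2, a mitotic cyclin, 904 on day 3 and 602 on day 2. Of the 14 with a promoter, 12 (85.7%) held TTTGAA, against 20.2% of all genes and 14.1% of the measured genes. CCAAT was in 11 of the 14 (78.6%). Ccnd1, the cyclin D1 that drives cells out of arrest, read 400 on day 3 and 1690 on day 2 on a family probe set (4.23-fold lower), and 169 on day 4. Cdkn2c, an inhibitor of the cyclin D kinases, was higher with 3750 on day 3 and 1700 on day 2 (2.21-fold).

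For the called genes as a whole, the shares of these motifs are set beside those of all measured genes, with no test. CCAAT was in 47 of 104 higher genes with a promoter (45.2%), in 37 of 97 lower genes (38.1%) and in 43.1% of the 1836 measured genes that had one. TTTGAA was in 19 of the higher genes (18.3%), 13 of the lower genes (13.4%) and 14.1% of the measured genes. TGACGTCA, the cyclic AMP response element, was in 1 of the higher genes (0.96%), 3 of the lower genes (3.09%) and 3.70% of the measured genes. An E2F form was in none of the higher genes, 3 of the lower genes and 2.18% of the measured genes. Of the adipocyte list 11 of 19 genes had a promoter, and 6 of these held CCAAT. None of the 11 held AAAGGTCA, a site of nuclear receptors. That site was in 3 of the higher genes (2.88%), 1 of the lower genes (1.03%) and 1.09% of the measured genes. With 11 promoters and so low a share, its absence says little.

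Genes of ribosome making lay lower in number but seldom by much. Of 18 nucleolar genes 14 lay at or below 0 with a median of -0.40, and Nip7, which matures the large subunit, was called with 1000 on day 3 and 2470 on day 2 (2.47-fold). Ncl, the nucleolin of the nucleolus, read 3850 on day 3 and 6020 on day 2. The 35 measured cytosolic ribosomal proteins had 33 below 0, none called and a median of -0.21, and their probe sets had a median of -0.32 on array A and -0.07 on array B.

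**Figure D3:**
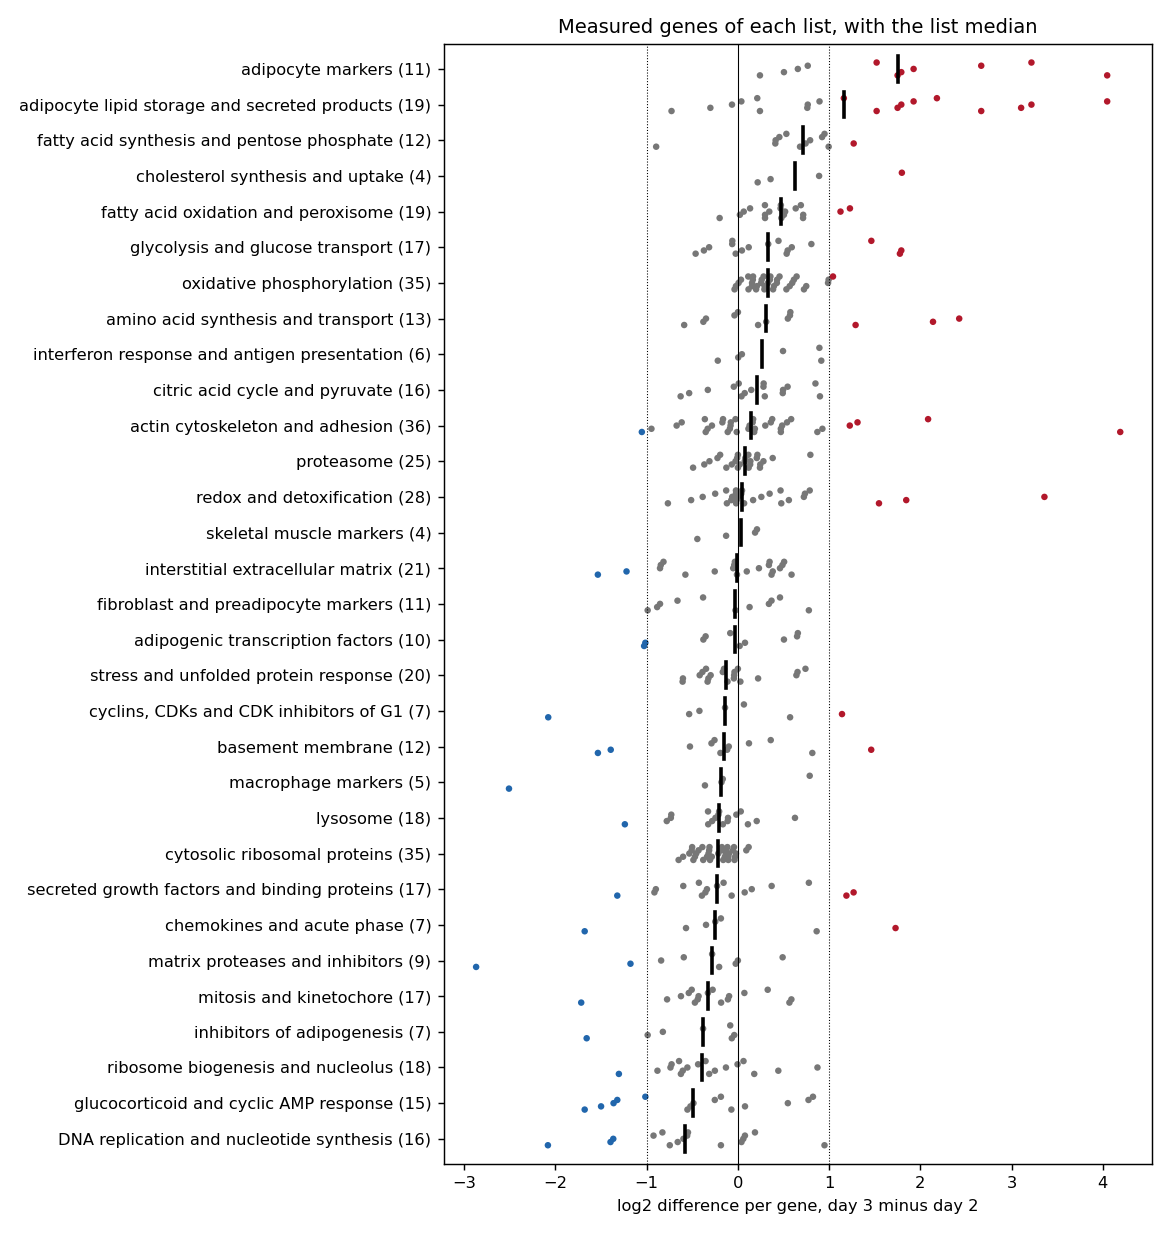
Log2 difference per gene, day 3 minus day 2, for the measured genes of each list with at least 4 of them, ordered by the list median (black bar). The number of measured genes is in parentheses, red and blue mark genes beyond 2-fold (dotted lines), and grey the rest. The adipocyte lists, which share genes, reach a median of 1.16 or more at the top, and DNA replication, at -0.58, is at the bottom.

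Matrix genes split between members. Vcan, measured by 2 bright probe sets of array A, read 2070 and 1080 on day 3 and 5470 and 2220 on day 2, 2.64-fold and 2.06-fold lower. Fn1, the fibronectin gene, read 2010 on day 3 and 4190 on day 2 on array A (2.08-fold), and 4610 on day 3 and 7220 on day 2 on array B (1.57-fold), both on family probe sets. P4ha2, a collagen prolyl hydroxylase, read 294 on day 3 and 852 on day 2 (2.90-fold). Collagen genes did not follow: Col3a1 read 9860 on day 3 and 7790 on day 2, and Col1a2 was higher on 1 of its 3 probe sets, with 2870 on day 3 and 1400 on day 2, while its family probe sets read 6270 and 5750 on day 3 and 6070 and 5500 on day 2. Over 21 interstitial matrix genes 1 was called higher and 3 lower, and the median was -0.01, which turned to 0.02 after quantile normalisation and 0.0078 after median centring.

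Basement membrane genes also went both ways. Lamc1, a laminin chain, read 978 on day 3 and 2570 on day 2 (2.63-fold lower), and Sdc1, a syndecan, read 281 on day 3 and 814 on day 2 (2.90-fold lower). Col15a1, a collagen next to basement membranes, was higher with 683 on day 3 and 248 on day 2 (2.75-fold). Col4a1 and Col4a2, the main network collagens, read 10800 and 16800 on day 3 and 12900 and 18000 on day 2. Among proteases and their inhibitors, Timp2, an inhibitor of metalloproteases, read 100 on day 3 and 1140 on day 2, at least 7.31-fold lower, and Adamts1, a protease that cleaves versican, read 1070 on day 3 and 2420 on day 2 (2.26-fold lower). Timp2 then read 262 on day 4 and below 0 on days 7 and 28. None of the 9 genes of that list was called higher, and the median was -0.28.

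Growth factor genes held calls in both directions. Fst, the activin antagonist follistatin, read 400 on day 3 and 1000 on day 2 (2.50-fold lower), continuing down from 5250 at 6 hours. Igfbp4, a binding protein of insulin-like growth factors, was lower on both of its family probe sets, with 1690 and 3310 on day 3 and 4250 and 4680 on day 2 (2.51-fold and 1.41-fold), but stood at 4440 and 4780 again on day 4. Vegfa, the vessel growth factor, was higher with 844 on day 3 and 370 on day 2 (2.28-fold), and Nrep, a small neuronal protein, was higher on both of its family probe sets by 2.83-fold and 2.05-fold. The 17 measured genes had 2 called higher and 2 lower, beside 5.99% and 5.19% of all measured genes.

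**Figure D4:**
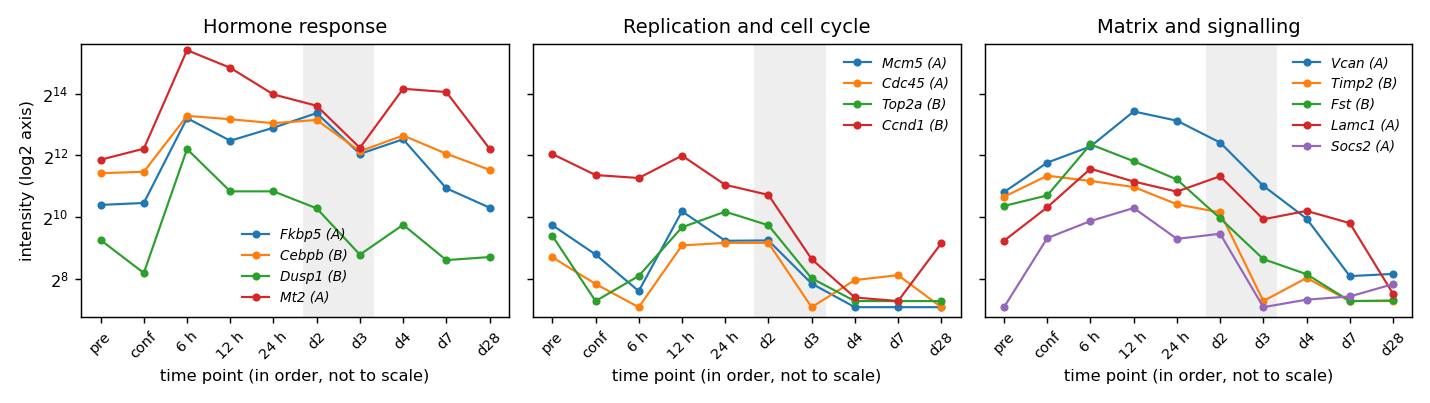
Intensity (log2 axis, floor in place) of 13 genes called lower on day 3, by time point in order and not to scale, drawn as in the plot of the raised genes. The grey band marks day 2 and day 3. Timp2 and Socs2 drop to the floor on day 3, while Mt2, Cebpb, Fkbp5 and Dusp1 stand higher again on day 4.

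The other genes with the largest drops were read on array A. Socs2, a suppressor of cytokine signalling, read 134 on day 3 and 707 on day 2, at least 5.20-fold lower, and stayed between 161 and 228 on days 4, 7 and 28. Samsn1, an adaptor of blood cells, read 254 on day 3 and 1860 on day 2 on a family probe set (7.32-fold). Itsn1, a scaffold of endocytosis, read 140 on day 3 and 673 on day 2 (4.81-fold), and Ptpn1, a phosphatase of the insulin receptor, read -412 on day 3 and 789 on day 2, at least 5.80-fold lower. Rcc2, a chromosome-binding regulator of mitosis, and Kmt2a, a histone methyltransferase, were at least 4.49-fold and 4.50-fold lower. Lyz2, the macrophage lysozyme, read 140 on day 3 and 797 on day 2 (5.69-fold).

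For several of these genes the day 4 array read higher again than day 3. Fgf15, a secreted growth factor with the largest drop of all named genes, read 99 on day 3 and 1420 on day 2, at least 10.4-fold, and 1420 again on day 4. Rnf181, a ubiquitin ligase, read 1190 on day 2, -639 on day 3 and 1500 on day 4. Cpd, a carboxypeptidase, read 920 on day 2, 110 on day 3 and 709 on day 4. Sidt2, a lysosomal membrane protein, read 698 on day 2, 87 on day 3 and 802 on day 4, and Lyz2 stood at 1240 on day 4. Coro2b, an actin-binding coronin, read 665 on day 2, 69 on day 3 and 306 on day 4, still more than 2-fold below day 2, and Klk1b16, a kallikrein on a family probe set, 786 on day 2, 102 on day 3 and 506 on day 4. The array B probe set of Klk1b16 lay below the floor in both samples, with 129 on day 3 and 114 on day 2. Plcb3, a phospholipase C, read -43 on day 3 and 1240 on day 2 on a family probe set, at least 9.12-fold lower, while its other probe set read 1290 on day 3 and 1380 on day 2.

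Agreement between probe sets of the same gene gave a measure of the error of probe sets only. The probe sets of a gene share the RNA sample, so differences between cultures or RNA preparations are not part of it. Among 357 pairs of bright probe sets from 291 genes, the log2 differences of a pair were 0.28 apart at the median, with a standard deviation of 0.42 between probe sets of a gene. In 45 pairs at least 1 probe set was past 2-fold, and in 40 of these (88.9%) both pointed the same way. The 134 pairs with a probe set on each array type, which were separate hybridisations, had 16 such pairs, of which 15 pointed the same way. Both probe sets were past 2-fold in 6 pairs and all 6 agreed in direction, those of Cd36, Vcan, Nrep, Flot1, a membrane scaffold protein, Mvp, the major vault protein, and 1110004F10Rik. No gene had probe sets past 2-fold in opposite directions. Tmem59, a Golgi protein among the 15 largest increases, read 1270 on day 3 and 201 on day 2 on 1 probe set, while its 2 other bright probe sets read 3440 and 1520 on day 3 and 3240 and 1470 on day 2.

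A check in arrays that the comparison did not use compared late samples (days 4, 7 and 28) with early ones (6, 12 and 24 hours) using limma, with 3 time points a side. The time points are not replicates, so its p-values measure the spread within each stage, which includes change with time. Over both array types 482 of 7172 probe sets were higher in late samples (6.72%) and 432 were lower (6.02%) at a Benjamini-Hochberg adjusted p below 0.05. Of the 189 probe sets higher on day 3, 186 passed its filter on dim values, and 69 of them (37.1%) were higher in late samples and 1 was lower. Among all 3882 tested probe sets with the brighter of day 3 and day 2 above 500, 9.07% were higher in late samples and 7.26% were lower. Of the 166 lower on day 3, 165 were tested, and 55 (33.3%) were lower in late samples and 4 were higher. The count of members depends on single time points: leaving out each of the 6 in turn gave 50 to 62 higher and 31 to 49 lower, the fewest without 12 hours, and 48 of the 69 and 28 of the 55 held in all 6. Without the filter on dim values the counts were 41 higher and 21 lower. The plot of both differences shows the members in this second comparison.

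**Figure D5:**
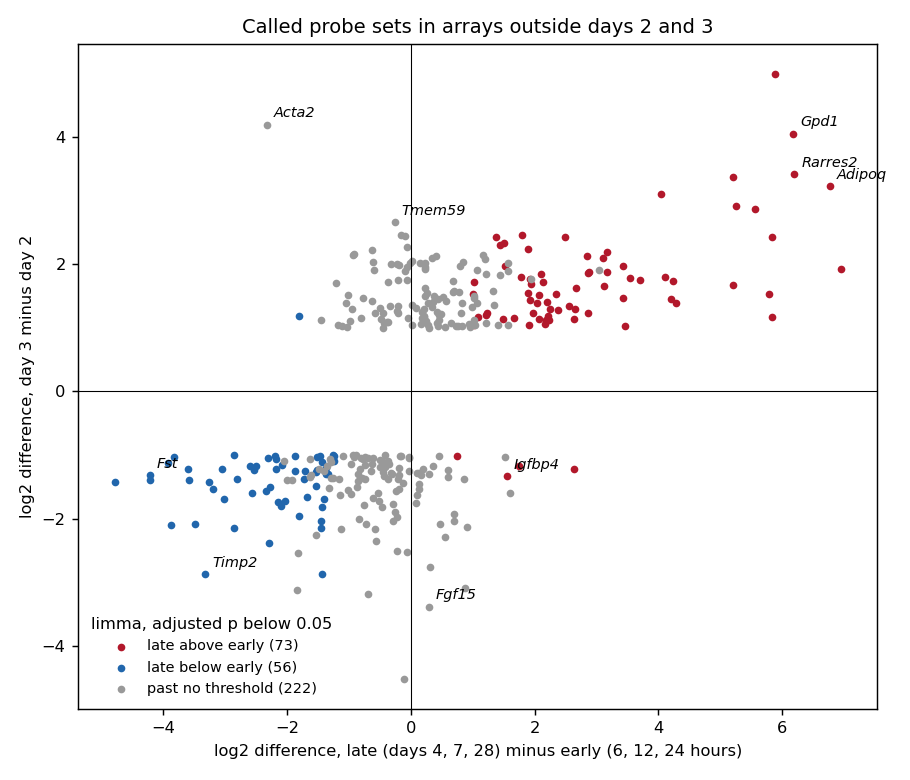
Log2 difference of day 3 minus day 2 (vertical) against late minus early samples (horizontal) for the called probe sets that limma tested in the arrays outside day 3 and day 2. Red points were higher and blue points lower in late samples at an adjusted p below 0.05, and grey points passed neither way. Gpd1, Adipoq and Rarres2 are at the upper right, Timp2 and Fst at the lower left, and Acta2, Fgf15 and Tmem59 stand apart from the diagonal.

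Gpd1, Adipoq, Cd36, Aldh1a7, Rarres2 and Mrap were higher in late than in early samples. The log2 difference was 6.18 for Gpd1 (limma adjusted p = 8.38e-06) and 6.77 for Adipoq (limma adjusted p = 7.41e-06). Among the lower genes, Fst had a log2 difference of -4.22 (limma adjusted p = 0.00133), Timp2 of -3.32 (limma adjusted p = 0.00153), Socs2 of -2.29 (limma adjusted p = 0.00386) and Sdc1 of -3.19 (limma adjusted p = 0.000832). Ccnd1, Foxc2, Adamts1, Actn1 and both Vcan probe sets were also lower in late samples and held with each time point left out. Fkbp5, Mcm2, Mcm5, Cebpb and Psat1 did not pass, with limma adjusted p of 0.0817, 0.0766, 0.056, 0.0564 and 0.0552. Acta2, Tmem59, Fgf15, Rnf181 and Plcb3 did not pass either, with adjusted p between 0.205 and 0.773. Igfbp4 went against its day 3 drop, with the probe set that was called standing 1.55 higher in late samples on the log2 scale (limma adjusted p = 0.00557).

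A plain comparison of day 4 with 24 hours, single samples that share no array with the main one, was also made. Of the 189 probe sets higher on day 3, 96 (50.8%) were at least 2-fold higher on day 4 than at 24 hours and 9 were at least 2-fold lower. Of the 166 lower on day 3, 79 (47.6%) were lower on day 4 and 10 were higher. Over all 3890 bright probe sets, 11.9% were higher and 13.2% lower.

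Markers of cell types were set beside these results. All 11 measured adipocyte markers lay above 0 and 7 were called higher, with a median of 1.75. All but Pparg and Cebpa, and with them all 7 called ones, are also in the list of adipocyte lipid storage and secreted products. The markers are therefore no separate evidence from that list. Of 11 measured fibroblast markers Fn1 was called lower and the median was -0.03, and Vim, the intermediate filament of fibroblasts, read 7410 on day 3 and 6780 on day 2. No bone and cartilage or brown fat marker was bright enough, Ucp1 reading 67 on day 3 and 2 on day 2. Of 15 macrophage markers on the arrays 5 were measured, and Lyz2 was called lower, with 140 on day 3 and 797 on day 2. Adgre1 and Csf1r lay below the floor in both samples. The summed intensity of the list's probe sets, with values below 0 set to 0, was 5187 on day 3 and 6138 on day 2. Lyz2 is part of that sum. Others of that list were bright in both samples, such as Ptprc with 1020 on day 3 and 1310 on day 2 and Cd14 with 1130 on day 3 and 1280 on day 2. Of 20 muscle markers 4 were measured and none was called, with a summed intensity of 7706 on day 3 and 8865 on day 2. Myf5 and Acta1 lay below the floor, while Ckm read 2620 on day 3 and 3350 on day 2 on its brighter probe set and Myog read 888 on day 3 and 768 on day 2. Of 10 endothelial markers 2 were measured and none was called, with a summed intensity of 1672 on day 3 and 1729 on day 2. Pecam1 and Cdh5 lay below the floor, Kdr read 777 on day 3 and 705 on day 2, and Icam2 read 700 on day 3 and 469 on day 2. The part of other cell types in the results was not tested.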

How the data were processed

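RNA of 3T3-L1 cells had been extracted with Trizol, and biotin-labelled cRNA was made from 10 µg of it, per the labels' protocols. The deposited intensity values are linear, 1 per probe set, made by the authors after the array maker's manual per the labels, and the software is not given in the sources used here. Trimmed means over the middle of each array lay between 500.9 and 501.1, so no further scaling was applied. Control probe sets were left out, which kept 6529 on array A and 6540 on array B. The floor was the 10th percentile of an array type with its sign turned. Gene symbols came from the platform annotation: 5541 probe sets of array A and 2001 of array B had 1 symbol, 197 and 27 had several, 791 and 4512 had none, and only those with 1 are named. A gene's value is the mean over its probe sets above 500. Differences are single samples, and the number of arrays limits their precision. Family probe sets, marked so in the probe set names, may also bind related transcripts and are pointed out where a gene rests on them.

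limma 3.58.1 in R 4.3.3 fitted late against early samples per array type, with Benjamini-Hochberg adjustment over both, on probe sets above the overall median or the floor in at least 2 of the 6 samples; it was tested on simulated data first. Promoters were matched by symbol in the RefSeq table of GRCm38.p6. Besides the motifs in the report, TTTAAA, TCACCCCAC, TCACGCCAC, AAAGGTCA and TATAAA were searched on both strands and were in 14.9%, 0.614%, 0.141%, 1.70% and 15.7% of all genes, while TGACGTCA was in 2.03%. No motif contains another.

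Named are the 15 genes with the largest difference in each direction, the called members of 27 gene lists and 7 marker lists with up to 6 examples a list and up to 6 that were not called, and Fabp4, Pparg, Cebpa, Cebpb, Adipoq and Dlk1. The comparison, the lists and this rule were chosen with earlier results of these data known. Floor, brightness limit, fold limit, scaling and shared probe sets were varied, and each time point of the late and early samples was left out in turn.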

Additional observations from a re-analysis of the deposited data

How the results depend on the processing

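No paired analysis was possible because each time point has 1 sample on each array type and no replicate numbers. Counts of called probe sets (array A higher and lower, then array B higher and lower) moved with the limits themselves: above 250 in place of 500 they were 245, 237, 101 and 87, above 1000 they were 44, 55, 27 and 25, at 3-fold 50, 33, 29 and 18, and at 1.5-fold 313, 291, 165 and 164. Without probe sets marked as shared or unspecific, which leaves 2072 of array A and 1081 of array B, they were 31, 14, 5 and 3. At 2-fold and the limit of 500, a floor 1.5 times as high and a floor of 20 left the counts as they were. Neither floor could change them, because both lie more than 2-fold below 500. Median centring and quantile normalisation kept the counts within 1.5 times, with array A at 127 and 101 or 117 and 102. Of 81 named probe sets past 2-fold, 81 stayed past it with median centring and 80 with quantile normalisation. Cebpb was the 1 that fell short with quantile normalisation. The genes called lower were then 4 of 15 in the hormone response and 1 of 10 adipogenic factors. All 81 stayed past 2-fold with the higher floor too, which was fixed in advance for the same reason. The median of 1 list changed sign under scaling, that of the interstitial matrix, at -0.01 in the report and 0.02 after quantile normalisation. In late against early samples, without the filter 198 were higher and 129 lower, with 41 and 21 among the members called the same way on day 3. With days 4 and 7 against 12 and 24 hours these were 165 and 140, with 51 and 33 among the members. Leaving out 1 time point gave 229 to 422 higher and 125 to 332 lower, with 50 to 62 and 31 to 49 among the members. Without 12 hours the counts were 229 and 125, without 6 hours 309 and 256, and without day 7 320 and 222. Leaving family probe sets out of the lists, an alternative chosen after seeing the data, left 8 of 16 adipocyte genes called and none of 13 mitosis genes, and the cytosolic ribosomal proteins went down to 8 measured genes with a median of -0.30. The cause of these changes was not tested where it is not the limit itself. With 1 sample a side, no difference of a single gene has an error of its own.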

Other observations

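Genes outside the lists also moved, and those named here were chosen after their values were seen. Several have roles in lipid handling and mitochondria. G0s2, an inhibitor of the main triglyceride lipase, read 4340 on day 3 and 1370 on day 2 (3.17-fold) after 52 at 24 hours. Scarb1, a receptor of high-density lipoprotein, read 595 on day 3 and -396 on day 2, at least 4.38-fold higher, and 1470 on day 4. Slc25a10, the mitochondrial dicarboxylate carrier, read 4690 on day 3 and 1380 on day 2 (3.40-fold), and Cavin2, a coat protein of caveolae, read 2490 on day 3 and 638 on day 2 (3.90-fold). Hibch and Fah, enzymes of valine and tyrosine breakdown, read 813 and 1130 on day 3 and 223 and 344 on day 2. G0s2, Scarb1, Slc25a10, Cavin2 and Hibch were also higher in late than in early samples with each time point left out, with limma adjusted p between 0.000183 and 0.00779.

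Other genes were lower. Sox4, a transcription factor of progenitor cells, read 197 on day 3 and 685 on day 2 (3.48-fold lower), and its other probe set 1140 on day 3 and 2250 on day 2. Fstl1, a secreted glycoprotein, read 1030 on day 3 and 2250 on day 2 (2.18-fold lower), down from 7070 at 12 hours. Gpc1, a cell surface heparan sulfate proteoglycan, read 312 on day 3 and 707 on day 2, and Fgfr2, a fibroblast growth factor receptor, 504 on day 3 and 1090 on day 2. Stat3, a cytokine signal transducer, was lower on both probe sets, with 663 and 3010 on day 3 and 1350 and 5350 on day 2 (a log2 difference of -0.83 on the second). Mest, an imprinted gene tied to fat cell size, read 496 on day 3 and 1170 on day 2, and Peg10, another imprinted gene, 241 on day 3 and 544 on day 2.

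Over both array types, the largest difference in each direction belonged to a probe set with no gene name. Unnamed probe sets with smaller differences are given beside them. On array B, Msa.450.0_f_at read 4930 on day 3 and 73 on day 2, at least 31.6-fold higher, and between 8870 and 9930 on days 4, 7 and 28, and x04673_s_at read 6230 on day 3 and 853 on day 2 (7.30-fold). In the other direction, an unnamed probe set of array B read 220 on day 3 and 5030 on day 2 (22.9-fold lower), but between 4320 and 5530 on the other 8 arrays. On array A, m18184_s_at read 951 on day 3 and 4080 on day 2, after 15900 at 24 hours.

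Genes called by single probe sets in disagreement with another included Notch2, a receptor, with log2 differences of -1.55, -0.60 and 0.76 on its 3 probe sets, and Nxf1, an mRNA export factor, with 1.02 and -0.71. Limk1, a kinase of the actin-severing protein cofilin, read 3330 on day 2, 1280 on day 3 and 5210 on day 4.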
